A study of Gallus gallus with 7 samples.

Results

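The regions described here are 500-bp stretches of the chicken genome that are methylated in microglia and lie directly beside an unmethylated 500-bp stretch. The genome was divided into 500-bp tiles, and 19115 tiles held at least 3 cytosine positions with a value in all 7 libraries. A tile was selected when it had 3 to 30 such positions, a mean methylation of at least 50% over the 4 non-conditioned libraries, and a directly adjacent tile of 3 or more positions whose mean in the same libraries was under 10%. This gave 194 methylated tiles, 1.01% of the 19115, and 194 unmethylated neighbours. They formed 195 borders, because 1 methylated tile had an unmethylated tile on both sides and 1 unmethylated tile was shared. The step at a border is the level of the methylated tile minus the level of its unmethylated neighbour, in percentage points. Because the levels of the non-conditioned libraries chose the tiles, a large step in those libraries is a property of the rule and not a result.

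In vertebrate genomes most cytosines in CpG context carry a methyl group, while CpG islands, which are CpG-rich stretches often found at promoters, usually stay free of it. DNMT1 copies methylation onto new DNA strands, DNMT3 enzymes add it and TET enzymes start its removal. The flanks of CpG islands, called shores, are known in mammals as places where methylation can vary between tissues. Reduced representation bisulfite sequencing (RRBS) enriches CpG-rich fragments made with a restriction enzyme, so it reads both sides of such a transition only where fragments happen to fall there. Microglia are the resident macrophages of the brain.

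The DNA came from microglia isolated by fluorescence-activated sorting of anterior hypothalamus cells. The chicks were 10 days old, 10 to 12 of them were pooled for a sample, and a library was made from 15 to 30 ng of DNA. The conditioned chicks had spent 24 hours at 39 °C on day 3, and the other chicks had not been conditioned; DNA was taken from chicks that had not received lipopolysaccharide. The non-conditioned group has 4 libraries (1 to 4) and the conditioned group 3 (1-2, 3 and 4). How the conditioned library numbered 1-2 was made is not given in the sources used here, and it was counted as 1 library. The strain and sex of the chicks are not given in the sources used here. The purity of the sort could not be read from the data, because markers of microglia or of other cell types can be placed on the tiles only with an annotation of the same genome build, which was not used here. In a pool of cells, an intermediate level can come from a mixture of methylated and unmethylated copies within or between cells, and these cannot be told apart.

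The libraries were not alike over the deposited table, which holds positions on chromosomes 1, 10, 11, 12 and 13 and part of chromosome 14. Between 652465 and 694825 positions had a value in a non-conditioned library, while conditioned libraries 1-2, 3 and 4 had values at 724260, 862443 and 834475. Over all tiles, conditioned library 3 had the lowest mean methylation, 33.2%, and conditioned library 1-2 the highest, 37.1%, with the non-conditioned libraries between 35.0% and 36.6%. The number of reads behind a value is not given. The share of positions in the 194 methylated tiles that stood at exactly 100% was 14.9% to 20.3% in the non-conditioned libraries, 14.2% in conditioned library 1-2, and 8.88% and 9.48% in conditioned libraries 3 and 4. The share at exactly 0 in the same tiles was 5.12% to 6.12% in the non-conditioned libraries and 1.96% to 3.81% in the conditioned libraries. In the methylated tiles both shares were lower in the 3 conditioned libraries, which had more measured positions, than in any non-conditioned library. In the unmethylated neighbours the share at exactly 0 was 44.1% to 46.7% in the non-conditioned libraries. There it was 34.5% in conditioned library 1-2, below them, and 56.1% and 51.6% in conditioned libraries 3 and 4, above them. The part of these differences in the values below was not tested.

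Borders of this kind were a minority among methylated tiles. Of 6648 tiles with 3 to 30 positions and a non-conditioned mean of at least 50%, 2738 had a measured neighbour. The lowest neighbour was under 10% in 194 of them (7.09%), between 10% and 50% in 691 (25.2%) and at 50% or more in 1853 (67.7%). Seen from the other side, 3.27% of the 5930 tiles under 10% with a measured neighbour bordered one of the methylated tiles. The 194 tiles lay on all 6 chromosomes of the table, with 75 on chromosome 1, 24 on chromosome 10, 27 on chromosome 11, 32 on chromosome 12, 26 on chromosome 13 and 10 on chromosome 14. These were 5.08% to 9.66% of the methylated tiles with a measured neighbour on each chromosome, lowest on chromosome 11 and highest on chromosome 1. The unmethylated tile lay to the left in 95 borders and to the right in 100.

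The thresholds cut through a continuum. Just inside the limit of 50% were the tiles at chr13:13097501-13098000, chr11:19376001-19376500 and chr1:53596501-53597000, all with a non-conditioned mean of 50% after rounding. Just outside it, beside unmethylated tiles, were chr1:69177001-69177500 at 49.97%, chr1:177063001-177063500 at 49.898% and chr11:1766001-1766500 at 49.888%. At the limit of 10%, the unmethylated neighbours of chr13:1856001-1856500, chr1:145107501-145108000 and chr1:640001-640500 had non-conditioned means of 9.92%, 9.89% and 9.89%. The nearest tiles beyond that limit, beside chr13:9046001-9046500, chr1:80554001-80554500 and chr1:20157001-20157500, had 10.0%, 10.1% and 10.1%. Coordinates are on galGal5 and counted from 1.

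The step was of similar height in every library. Its mean over the 195 borders was 57.5, 59.4, 59.2 and 60.7 percentage points in non-conditioned libraries 1 to 4, and 60.4, 56.6 and 59.0 points in conditioned libraries 1-2, 3 and 4. The range of the conditioned libraries overlapped that of the non-conditioned libraries, and conditioned library 3 was the lowest of all 7. The group means were 59.2 ± 1.32 points (SD, n = 4) and 58.7 ± 1.92 points (SD, n = 3), a difference of -0.52 points. The methylated side averaged 64.9% ± 1.53 (SD, n = 4) in the non-conditioned and 63.6% ± 3.37 (SD, n = 3) in the conditioned libraries. Its 3 conditioned values were 67.1%, 60.3% and 63.4% in libraries 1-2, 3 and 4, so that they lay above and below the 63.0% to 66.7% of the non-conditioned libraries. The unmethylated side averaged 5.68% ± 0.246 (SD, n = 4) and 4.90% ± 1.54 (SD, n = 3). Conditioned library 1-2 was above every non-conditioned library on that side, at 6.63%, and conditioned libraries 3 and 4 were below them, at 3.69% and 4.39%. The same order held over the other tiles under 10% with a measured neighbour, where conditioned libraries 1-2, 3 and 4 averaged 5.92%, 3.10% and 3.61% beside 5.21% to 5.54% in the non-conditioned libraries. These are descriptions, since the non-conditioned libraries chose the tiles.

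**Figure D1:**
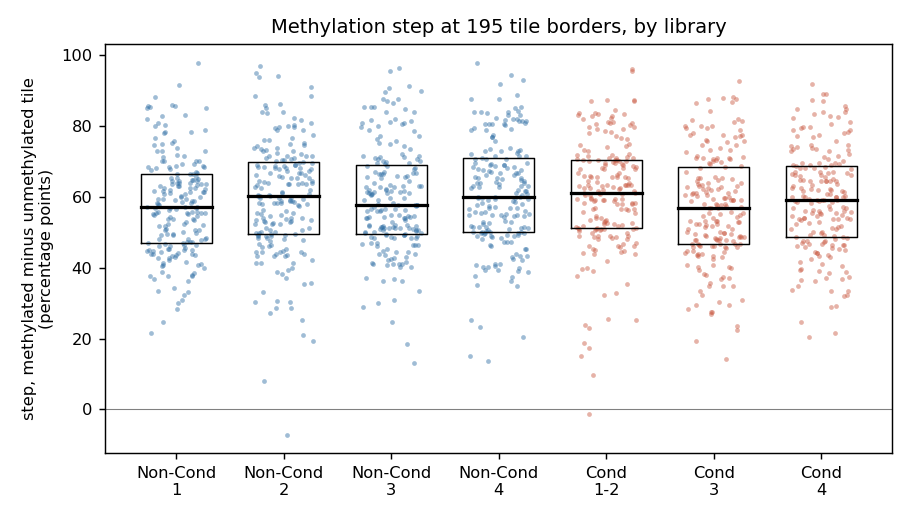
Step at each of the 195 borders (vertical axis, percentage points) in the 4 non-conditioned (Non-Cond) and 3 conditioned (Cond) libraries; each point is a border, the box spans the quartiles and the thick line is the median. The medians lie between 56.8 and 61.2 points, and the groups overlap.

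The step was then read in libraries whose levels had no part in the choice. For this the tiles were chosen anew from 3 non-conditioned libraries and read in the library left out. The positions used still needed a value in all 7 libraries. The left-out non-conditioned libraries 1 to 4 had mean steps of 54.6, 56.1, 56.6 and 57.7 points over 207, 193, 189 and 198 tiles. Their mean was 56.2 ± 1.27 points (SD, n = 4), against 59.3 points in the libraries that had chosen the tiles. Over the same 4 choices, conditioned libraries 1-2, 3 and 4 averaged 59.5, 55.9 and 58.4 points, a mean of 57.9 points. The conditioned mean was 1.68 points above the left-out mean, whereas it was 0.52 points below the non-conditioned mean in the libraries that made the choice. The order of the group means therefore depended on which libraries chose the tiles, and in both readings the library values overlapped.

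Single borders varied far more than the means. The non-conditioned step ran from 41.1 to 90.5 points with a median of 56.7, and the conditioned step from 24.7 to 88.5 points with a median of 58.0. The difference between the group means of a border ran from -28.8 to 19.7 points, with quartiles of -4.51 and 3.75. It was negative in 90 borders and positive in 105. The median SD of the step was 7.18 points among the non-conditioned and 7.04 points among the conditioned libraries. These are SDs of single libraries and cannot be set directly against the quartiles of a difference between group means. Tiles with few positions were the noisiest: the median non-conditioned SD was 10.1 points over the 64 borders whose methylated tile held 3 to 5 positions, 7.80 over the 59 with 6 to 10 positions and 4.997 over the 72 with 11 to 30 positions. The mean non-conditioned step was alike in these 3 sets, at 59.3, 59.5 and 59.0 points.

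The direction of the step held in nearly every library. It was above 0 in all 7 libraries at 193 of 195 borders and above 30 points in all 7 at 162. The non-conditioned libraries chose the borders, and their mean step was 41.1 points or more at each, so both counts are in part a property of the rule. Conditioned libraries 1-2, 3 and 4, whose levels did not enter the choice, had a step above 0 at 194, 195 and 195 borders. The step was above 30 points in all 3 of them at 174 borders. At chr11:1765001-1765500 the step was -7.14 points in non-conditioned library 2, and at chr12:1752501-1753000 it was -1.30 points in conditioned library 1-2. The conditioned mean, which did not enter the rule, met both limits at 161 borders (82.6%). Its methylated tile was at 50% or more at 171 borders, and its neighbour was under 10% at 183.

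The rule sets a low tile against a high one, so the mean course along the DNA rises at the line between the tiles by construction, and it is given as a description. Averaged over the borders with a position in each 100-bp bin, non-conditioned methylation on the unmethylated side was 5.15% ± 0.0891 (SD, n = 4) at 400 to 500 bp from the line and 11.9% ± 1.89 (SD, n = 4) within 100 bp of it. On the methylated side it was 52.7% ± 3.42 (SD, n = 4) within 100 bp of the line and 67.0% ± 1.67 (SD, n = 4) at 300 to 400 bp. The conditioned libraries had 3.72% ± 1.52, 12.5% ± 1.69, 52.3% ± 4.22 and 65.0% ± 4.17 (SD, n = 3) in the same 4 bins. In both groups the bins next to the line were thus less extreme than those further out. The bins are filled by different borders, 44 to 154 of 195 within the tiles, so this course is not that of a single border.

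**Figure D2:**
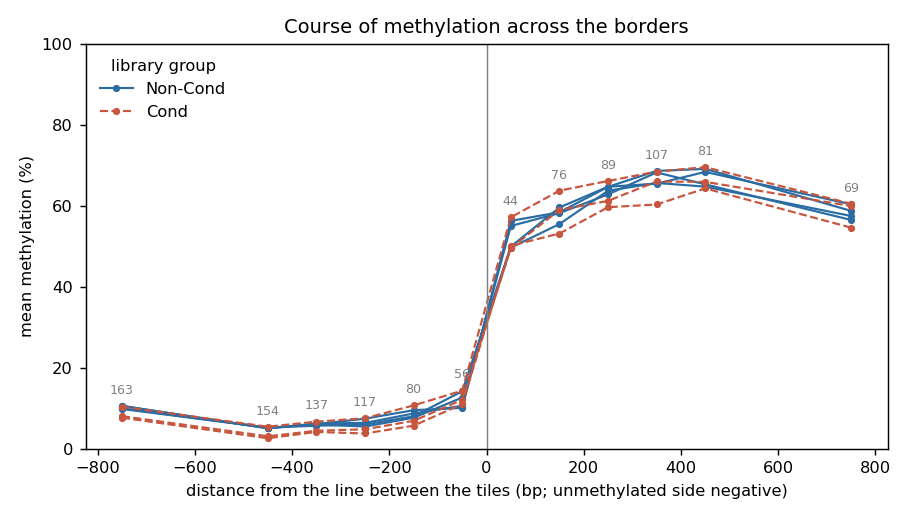
Mean methylation (vertical axis, %) by distance from the line between the tiles (horizontal axis, bp, unmethylated side negative) for each library; grey numbers count the borders in each bin. All 7 libraries pass from under 15% within 100 bp before the line to 49.6% or more within 100 bp after it.

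The tiles beyond the border mostly continued the state beside them. Of the 159 borders with a measured tile beyond the unmethylated tile, that tile was under 10% in 127, between 10% and 50% in 29 and at 50% or more in 3. Its mean was 9.24% in the non-conditioned and 7.72% in the conditioned libraries. Only 56 borders had a measured tile beyond the methylated tile, and that tile was at 50% or more in 40, between 10% and 50% in 14 and under 10% in 2. Its mean was 59.3% and 59.1% in the same order.

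The line between tiles is set by the grid, so the place of the change was also sought in the positions themselves. Values of positions 1 bp apart, taken as the 2 strands of a CpG, were averaged. Each border was split where the non-conditioned means before and after differed best by least squares, with at least 2 CpGs on each side. This description was chosen after the values had been seen. The 2 CpGs next to the split lay 2 to 969 bp apart, with a median of 372 bp. They were over 300 bp apart at 120 borders and no more than 50 bp apart at 46. At most borders the positions with a value in all 7 libraries therefore left a wide gap at the split. The place of the change is known from them only to within that distance. Positions with a value in only some libraries were not used, and how far they would narrow the gaps was not examined.

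**Figure D3:**
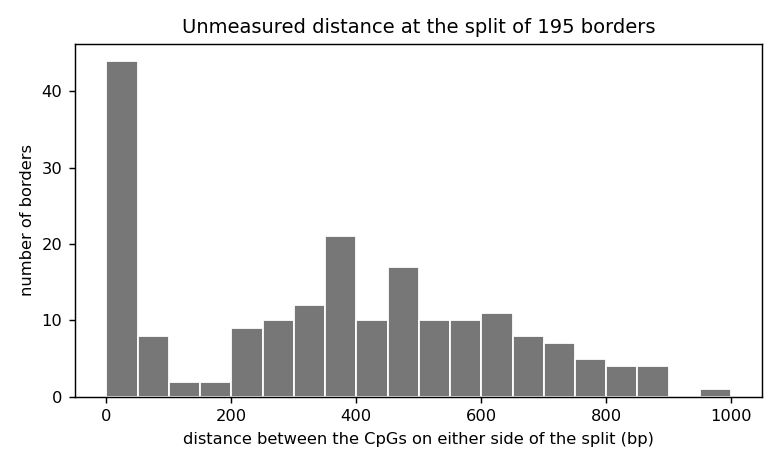
Number of borders (vertical axis) by the distance between the CpGs on either side of the split (horizontal axis, bp, bins of 50 bp). A set of borders within 50 bp stands beside a broad set above 200 bp; the median is 372 bp.

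The split fell at the same place in both group means at 150 of 195 borders (76.9%). Where it differed, the conditioned split lay further into the methylated tile at 24 borders and further into the unmethylated tile at 21, with a median distance of 216 bp between the splits. Single libraries shared a split at 62.1% to 73.8% of borders within the non-conditioned group, at 64.1% to 70.3% within the conditioned group and at 62.1% to 70.3% between groups. Libraries of different groups therefore shared splits about as often as libraries of one group. Where the CpGs beside the split lay more than 300 bp apart, it was the same in both group means at 106 of 120 borders. Where they lay within 50 bp, it was the same at 21 of 46.

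The height of the jump at the split depended on which group placed it. Over the 3 CpGs on each side (fewer where a side held fewer), a split placed by the non-conditioned mean gave a jump of 57.1 ± 1.53 points (SD, n = 4) in the non-conditioned and 53.8 ± 2.15 points (SD, n = 3) in the conditioned libraries. A split placed by the conditioned mean gave 54.7 ± 2.00 and 55.9 ± 2.05 points. At the 46 borders with CpGs within 50 bp the non-conditioned placing gave 50.3 ± 2.00 and 43.6 ± 3.31 points, and at the 44 such borders of the conditioned placing the jump was 42.7 ± 2.19 and 46.0 ± 2.02 points. Each group had the larger jump when its own mean placed the split, so no difference in sharpness between the groups can be read from these values.

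Closely measured sharp borders, a class also defined after the values had been seen, were few. At 19 borders the CpGs beside the split were within 50 bp, the 3 CpGs before it averaged under 10% and the 3 after it 50% or more in the non-conditioned libraries. Among these 19, the conditioned mean had the same split at 8 and met both limits at 11, and its jump ranged from 38.5 to 76.1 points. The 3 CpGs of a side often spanned a long stretch, with a median reach of 424 bp for the longer side. At 1 of the 19, the border at chr11:19191501-19192000, all 3 CpGs of each side lay within 100 bp of the split. There the last CpG before the change and the first after it were 20 bp apart.

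At that border the 3 CpGs on the unmethylated side were at 5.85%, 6.94%, 10.8% and 5.13% in the non-conditioned libraries and at 1.11%, 1.63% and 4.26% in conditioned libraries 1-2, 3 and 4. The 3 CpGs on the methylated side were at 59.4%, 56.0%, 61.0% and 63.1% in the non-conditioned and at 67.4%, 55.1% and 51.03% in the conditioned libraries. The sides did not overlap in any library, while the groups overlapped on the methylated side. Position by position, the last cytosine before the line, 17.5 bp from it, averaged 13.9% in the non-conditioned and 2.46% in the conditioned libraries. The cytosines 1.5 and 2.5 bp beyond the line averaged 42.3% and 52.8% in the non-conditioned libraries, and those at 62.5 and 63.5 bp averaged 86.4% and 88.0%. The level was lower again at the last measured cytosines: 3 cytosines 122 to 143 bp beyond the line were at 15.2%, 22.1% and 25.7%, and the conditioned libraries had 21.1%, 30.9% and 26.0% there.

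**Figure D4:**
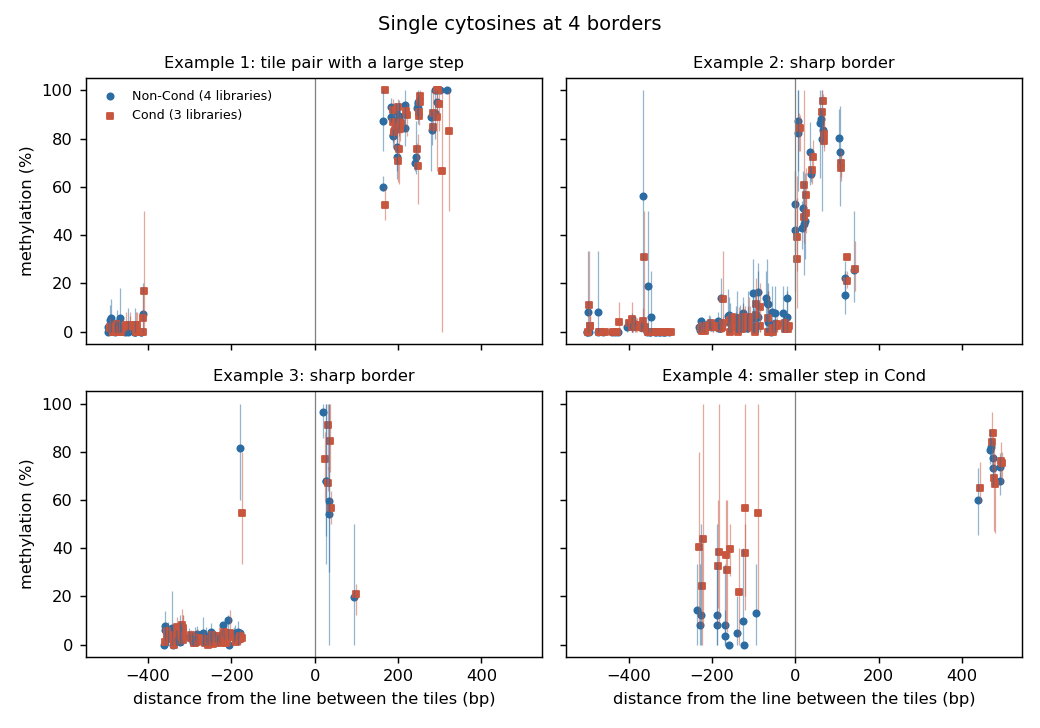
Methylation of single cytosines (vertical axis, %) by distance from the line between the tiles (horizontal axis, bp) at 4 borders; points are group means over 4 non-conditioned and 3 conditioned libraries, bars run from the lowest to the highest library. Example 1 is chr1:49519501-49520000, example 2 chr11:19191501-19192000, example 3 chr14:2506501-2507000 and example 4 chr1:49677001-49677500, where the conditioned mean of the unmethylated tile is 38.2%. In example 3 the first CpG after the split lies before the line, with cytosines at 81.7% and 4.85% in the non-conditioned mean.

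The 5 largest steps described here are those among borders with 5 or more positions in both tiles. At these the methylated tile had a non-conditioned mean of 85.0% or more and its neighbour one of 1.19% to 9.84%. The border at chr1:50229501-50230000, with a non-conditioned step of 88.7 points, was left out because its unmethylated tile held 4 positions. Among borders with 5 or more positions in both tiles the largest non-conditioned mean was at chr14:4813001-4813500, with steps of 85.6, 96.9, 96.2 and 83.2 points in the non-conditioned and 81.1, 92.6 and 91.8 points in the conditioned libraries. The next, chr1:155053501-155054000, had 83.0, 93.8, 85.4 and 91.8 points in the non-conditioned and 87.4, 77.6 and 87.0 points in the conditioned libraries. The groups overlapped at both borders.

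The third, chr1:49519501-49520000, rested on more positions, 28 in the methylated and 27 in the unmethylated tile. Its steps were 85.6, 85.9, 87.5 and 84.0 points in the non-conditioned and 82.8, 79.9 and 89.0 points in the conditioned libraries. Its methylated tile was at 87.5% ± 0.705 (SD, n = 4) and 85.8% ± 3.52 (SD, n = 3), and its neighbour at 1.77% ± 1.33 (SD, n = 4) and 1.91% ± 1.46 (SD, n = 3). The cytosines facing each other across this border were 578 bp apart once strands were averaged. The change there was therefore not observed directly in the positions with a value in all 7 libraries.

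The fourth, chr11:8599501-8600000, had 7 positions on each side and steps of 82.9, 80, 87.1 and 85.4 points in the non-conditioned and 87.2, 88.1 and 87.2 points in the conditioned libraries. Its neighbour was listed at 0 in 6 of 7 libraries and at 4.76% in non-conditioned library 3. The fifth, chr1:72420501-72421000, had steps of 75.8, 88.5, 86.5 and 84.0 points beside 79.1, 87.7 and 78.2 points. Its neighbour was just inside the limit, at 9.84% ± 4.87 (SD, n = 4) and 8.44% ± 3.16 (SD, n = 3). Every library at these 5 borders had a step of at least 75.8 points. The non-conditioned steps ranked these borders, so only the conditioned steps were read apart from the choice.

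The methylated tiles at borders were less methylated than methylated tiles elsewhere. Their median non-conditioned level was 62.5%, beside 71.4% over the 2544 methylated tiles with a measured neighbour and none under 10%. A level of 80% or more was reached by 17 of 194 (8.76%) and by 27.0% of those other tiles. In the conditioned libraries, whose levels did not enter the rule, the mean was 63.6% ± 3.37 (SD, n = 3) at borders and 69.8% ± 2.46 (SD, n = 3) elsewhere. It was lower at borders in each of the 3 conditioned libraries, with 67.1% against 72.0% in library 1-2, 60.3% against 67.1% in library 3 and 63.4% against 70.2% in library 4. No test was made of this difference, since tiles of a library are not independent samples.

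The 1993 positions of the methylated tiles were mixed. By their non-conditioned mean, 2.01% were under 10%, 23.4% between 10% and 50%, 45.8% between 50% and 80% and 28.9% at 80% or more. In the 8609 positions of the unmethylated neighbours 87.5% were under 10%, and 114 positions were at 50% or more. Most of the methylated tiles' positions, 73.2%, had a partner 1 bp away, taken as the opposite strand of the same CpG. Over the 760 CpGs measured on both strands, the median difference between strands was 7.10 points in the non-conditioned mean. At 40 borders a cytosine at or under 10% and one at or over 50% were 1 bp apart, as the 2 strands of a CpG are. No sequence was used to tell whether such a pair belonged to the same CpG. The shortest distance between a low and a high cytosine can therefore reflect strand differences at those borders, and it was not used further to describe sharpness.

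The sides of a border differed in how densely they were measured. The methylated tiles held a median of 8 positions, the same as the other methylated tiles, while the unmethylated neighbours held a median of 38. The median was 47 over the other tiles under 10% and 13 over all tiles. The unmethylated tile had more positions at 171 of 195 borders, fewer at 23 and as many at 1. The limit of 30 positions applied only to the methylated tile and fixes part of this difference. The spread between libraries was somewhat larger than that of other methylated tiles. The median SD was 6.28 points at borders and 5.74 points elsewhere among the non-conditioned libraries. Among the conditioned libraries it was 6.87 points at borders and 5.93 points elsewhere. This difference was not tested.

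Whether conditioning changed the step was examined with limma over all adjacent tile pairs of the table, on a log2 ratio of methylated to unmethylated fraction. At a Benjamini-Hochberg adjusted p under 0.05, 0 of 8650 pairs (0%) passed in this limma fit and 0 of the 195 borders; the lowest adjusted p was 0.401 over all pairs and 0.874 over the borders. At an unadjusted p under 0.05 the step was smaller in the conditioned libraries at 4 borders (2.05%), where 2.71% of all pairs were called, and larger at 2 borders (1.03%), where 2.37% of all pairs were called. The groups did not overlap, on the log2 ratio, at 2 borders with a smaller step (1.03%) against 2.9% of all pairs, and at 10 with a larger step (5.13%) against 3.47% of all pairs. As the non-conditioned libraries chose the borders, nothing is read from these shares. The counts of 4 smaller and 2 larger steps also turned with the scale: they were 3 and 0 in percentage points and 2 and 6 with an offset of 0.01 in the log2 ratio, and without the mean-variance trend they were 4 and 4. Over all 8650 pairs the counts were 234 and 205 in the main fit. They were 224 and 161 in percentage points, 216 and 243 with the offset of 0.01 and 231 and 207 without the trend. Leaving out single libraries gave 1 to 4 smaller and 1 to 5 larger steps at the borders, beside 197 to 261 and 160 to 227 over all pairs. At the borders the smaller steps were 1 without non-conditioned library 3 and 2 without conditioned library 3. The larger steps were 4 without non-conditioned library 1, 3 or 4 or conditioned library 1-2, 5 without non-conditioned library 2 and 1 without conditioned library 4. The median log2 difference, conditioned minus non-conditioned, was 0.12 over the borders and 0.01 over all pairs.

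The same held for the level of each tile on its own. In the limma fit over 18784 tiles, 0 tiles passed at an adjusted p under 0.05 (0%), and the lowest adjusted p was 0.0644 over all tiles and 0.784 over both the 194 methylated tiles and the 182 unmethylated neighbours with a level of 2% or more that entered the fit. At an unadjusted p under 0.05, 2 methylated tiles (1.03%) and 12 unmethylated neighbours (6.59%) were lower in the conditioned libraries, beside 4.88% of all tiles. For a higher level the counts were 0 methylated tiles and 3 unmethylated neighbours (1.65%), beside 1.13% of all tiles. Over all 18784 tiles these were 917 lower and 212 higher. The non-conditioned libraries chose the methylated tiles for a high level and the neighbours for a low one, so nothing is read from these shares either. The same limit holds for the counts that follow, which are out of 194 methylated tiles, 182 unmethylated neighbours and 18784 tiles. Without conditioned library 1-2, 8 methylated tiles were lower and 0 higher, with 36 neighbours lower and 1 higher, beside 2233 and 166 of all tiles. Without conditioned library 3, 4 methylated tiles were lower and 3 higher, with 6 neighbours lower and 5 higher, beside 503 and 354 of all tiles. Without conditioned library 4, 4 methylated tiles were lower and 1 higher, with 6 neighbours lower and 2 higher, beside 488 and 195 of all tiles. Over the non-conditioned libraries left out in turn, 1 to 4 methylated tiles and 9 to 15 neighbours were lower, and 0 to 1 methylated tiles and 1 to 3 neighbours were higher. The extremes were 1 lower methylated tile and 1 higher neighbour without library 3, and 4 lower methylated tiles and 1 higher without library 2. In those fits 731 to 861 of all tiles were lower and 197 to 261 higher. With each library centred on its median, 3 methylated tiles were lower and 0 higher, with 20 neighbours lower and 2 higher, beside 1204 and 255 of all tiles. The median log2 difference was -0.04 over the methylated tiles, -0.16 over the unmethylated neighbours and -0.13 over all tiles. With 4 and 3 libraries the power for single tiles is limited, and these counts do not show that the groups are alike.

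**Figure D5:**
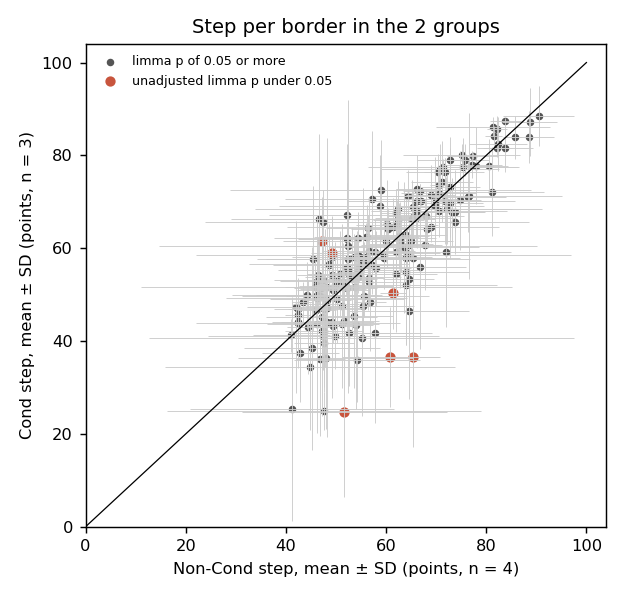
Conditioned step (vertical axis, percentage points, mean ± SD, n = 3) against non-conditioned step (horizontal axis, percentage points, mean ± SD, n = 4) at each of 195 borders, with the line of equality. The 6 borders with an unadjusted limma p under 0.05 are in red, 4 of them under the line and 2 above it on the log2 scale (3 and 0 when tested in percentage points); none passed after adjustment.

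The largest difference between the group means of a border, a smaller conditioned step, went with a higher conditioned mean on the unmethylated side. The non-conditioned libraries chose the borders for a high and a low tile. The choice itself therefore favours a smaller step in the conditioned libraries, here and at the borders that follow. At chr1:49677001-49677500 the step was 62.4, 73.0, 61.4 and 65.0 points in the non-conditioned and 15.0, 53.1 and 41.7 points in the conditioned libraries, and the groups did not overlap. The methylated tile itself was at 73.5% ± 3.40 (SD, n = 4) and 74.9% ± 10.1 (SD, n = 3). Its neighbour was at 6.11%, 2.08%, 12.9% and 11.1% in the non-conditioned libraries and at 68.8%, 10.8% and 35.1% in conditioned libraries 1-2, 3 and 4. That neighbour rested on 12 positions of unknown read depth, with group means of 8.04% ± 4.89 (SD, n = 4) and 38.2% ± 29.1 (SD, n = 3). Conditioned library 3 was thus within the non-conditioned range, and library 1-2 was the farthest from it. The 12 positions lay close together on the DNA, and whether they share reads cannot be told. They therefore cannot be taken as 12 separate readings. The CpGs beside the split of the non-conditioned mean were 534 bp apart. The change at this border was therefore not observed directly in the positions with a value in all 7 libraries. In limma the log2 difference of the step was -2.07 (SE 0.59, adjusted p = 0.874), and without library 1-2 the difference was -1.47.

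At chr12:11556501-11557000 the methylated side differed instead. The steps were 58.9, 49.0, 63.0 and 72.3 points in the non-conditioned and 25.1, 38.3 and 46.5 points in the conditioned libraries, without overlap. The methylated tile, with 5 positions, was at 64.5% ± 9.90 (SD, n = 4) and 39.6% ± 9.61 (SD, n = 3), and the neighbour at 3.66% ± 1.10 (SD, n = 4) and 3.01% ± 1.34 (SD, n = 3). The limma log2 difference of the step was -1.24 (SE 0.46, adjusted p = 0.953).

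The other borders with a smaller conditioned step overlapped between the groups. At chr1:271001-271500 the steps were 64.0, 58.9, 63.4 and 59.3 points beside 59.1, 46.5 and 45.3 points, with conditioned library 1-2 inside the non-conditioned range. At chr1:145107501-145108000 they were 43.1, 33.0, 50.1 and 80.5 points beside 9.67, 19.4 and 44.9 points, and both tiles there were at the edge of the rule or widely spread. The fifth by p, chr13:17302501-17303000, had 57.8, 69.5, 66.9 and 63.8 points beside 60.9, 39.9 and 59.0 points.

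Among borders with a larger conditioned step, the differences of the 5 with the lowest p ran from 2.64 to 14.3 points. At chr12:2948501-2949000 the steps were 36.2, 54.7, 49.2 and 48.6 points in the non-conditioned and 69.0, 50.8 and 64.7 points in the conditioned libraries, a limma log2 difference of 1.53 (SE 0.50, adjusted p = 0.912). The neighbour there had 5 positions and was at 0, 2.59% and 0 in the conditioned libraries. At chr13:1649001-1649500, with 24 and 63 positions, the steps were 54.2, 44.6, 50.5 and 47.4 points beside 67.9, 55.0 and 54.1 points. Conditioned library 1-2 had the largest step at both borders, and the groups overlapped in percentage points at both.

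At the last 3 of these larger steps, too, the groups overlapped in percentage points. At chr10:18811001-18811500 the step was 77.3 ± 5.12 points (SD, n = 4) and 79.9 ± 0.652 points (SD, n = 3), with the neighbour at 7.42% ± 4.34 (SD, n = 4) and 0.852% ± 0.958 (SD, n = 3). At chr12:1477501-1478000 it was 70.4 ± 2.89 points (SD, n = 4) and 76.4 ± 3.89 points (SD, n = 3), and at chr12:578501-579000 it was 43.3 ± 2.09 points (SD, n = 4) and 48.4 ± 4.30 points (SD, n = 3). All 3 had an adjusted limma p of 0.978.

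The methylated tile with an unmethylated tile on both sides, chr14:1134501-1135000, rested on 4 positions and had a non-conditioned SD of 37.5 points. It was at 75%, 25%, 100% and 25% in the non-conditioned and at 100%, 50% and 37.5% in the conditioned libraries. Its neighbours were steady, with 52 positions at 8.12% ± 1.77 (SD, n = 4) and 10.9% ± 3.37 (SD, n = 3) on the right and 9 positions at 3.83% ± 1.11 (SD, n = 4) and 2.07% ± 1.58 (SD, n = 3) on the left. The reads behind these values are unknown.

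The authors' deposited table of segments covered the borders unevenly. Of the methylated tiles 32 overlapped a segment, of the unmethylated neighbours 131 did, and 16 borders were spanned by a segment. In the authors' deposited table, 0.685% of the 12557 segments on these chromosomes had a q-value under 0.05. None of the 35 segments over a methylated tile did, and 2 of the 258 over an unmethylated neighbour did (0.775%), which is near the share of all segments. In the authors' deposited table, the segment at chr11:1281494-1281609 had group means of 4.55% in the non-conditioned and 2.01% in the conditioned libraries with a q of 0.0127. It overlapped only the end of the neighbour of chr11:1280501-1281000, which stops at 1281500, and lay mostly beyond that tile. The mean of that neighbour, given below, therefore does not describe this segment. In the authors' deposited table, the segment at chr10:7671590-7671650, beside chr10:7672001-7672500, had 12.6% and 7.96% with a q of 0.0129. The whole neighbour tiles at these borders averaged 3.13% ± 0.724 (SD, n = 4) and 2.34% ± 1.49 (SD, n = 3) on chromosome 11, and 5.57% ± 1.11 (SD, n = 4) and 4.45% ± 1.63 (SD, n = 3) on chromosome 10. The steps at both borders overlapped between the groups, with 64.9, 66.9, 63.9 and 71.6 points beside 70.8, 72.7 and 73.6 points on chromosome 11.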

How the data were processed

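Reduced representation bisulfite sequencing of sorted chicken microglia gave 4 non-conditioned and 3 conditioned libraries. The build was galGal5, and Bismark 0.22.3, Trimmomatic, HOMER and Bowtie are the tools listed, per the submitters' processing notes. The site table deposited by the authors gives percent methylation per cytosine position and library, unscaled. Depth is unknown, so no interval for counting error is given. The table holds 1048575 positions, 513180 of them with a value in all 7 libraries, on chromosomes 1, 10, 11, 12 and 13 and on 14 up to position 4886681. It appears cut at the line limit of a spreadsheet. The segment table deposited by the authors gives group means in percent, p-values, q-values and the count of CpG positions of a segment, per the file headers; how they were made is not given in the sources used here.

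Tile levels are means over positions with a value in all 7 libraries. A position with few reads therefore weighs as much as a deep one. Groups came from the sample titles. The members, lists and tests were chosen with earlier results of these data known. Steps and tile levels were tested, two-sided, with limma 3.58.1 in R 4.3.3, whose moderated test was run with a trend of variance on level, using log2((f + 0.05)/(1 - f + 0.05)), where f is the methylated fraction, with Benjamini-Hochberg adjustment over 8650 adjacent pairs or 18784 tiles with a level between 2% and 98% (in at least 1 tile of a pair). The offset of 0.05 shrinks differences near 0 and 100%. Library deviations of the shared replicate numbers did not move together (correlations of 0.0090 and 0.0010 for numbers 3 and 4), so the numbers were not taken as pairs. The labels name separate pools but no further separation, so p-values measure the spread between these libraries. Named borders are the 5 with the largest non-conditioned step among those with 5 or more positions in both tiles, the 5 with the lowest p in each direction, those with 2 unmethylated neighbours, those with a deposited q under 0.05, and those next to the thresholds. A further rule, the 5 shortest distances from a low to a high cytosine, gave ties at 1 bp and its borders are not described. Other computing used Python 3.11.15, numpy 2.4.6 and pandas 2.3.3. Alternatives covered tile grid and width, thresholds, positions, strand averaging, scale, offset, filters, centring, the libraries that choose the members and each library left out.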

Additional observations from a re-analysis of the deposited data

Results flagged for a closer look

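Of 47 sets of 4 non-conditioned values examined, 1 had a library far from the others, where chance flags about 1 in 20 (2.35 sets). It was the step at chr1:640001-640500, with its unmethylated tile at chr1:640501-641000. Non-conditioned library 2 had a step of 43.9 points, and libraries 1, 3 and 4 had 61.5, 61.2 and 58.8 points, so that the gap took 0.846 of the range. The unmethylated tile was at 22.9% in library 2 and at 2.37%, 8.88% and 5.44% in the others, while the methylated tile was at 66.8% in library 2 and at 63.8%, 70.1% and 64.2% in the others. The conditioned steps were 65.6, 61.1 and 66.4 points.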

How the results depend on the processing

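The number of methylated border tiles was 60 with tiles of 250 bp and 26 with limits of 70% and 5%, and stayed between 139 and 276 under the other choices. The non-conditioned and conditioned mean steps were 55.5 and 54.6 points with 250-bp tiles, 63.0 and 62.8 with 1000-bp tiles and 76.4 and 76.4 with limits of 70% and 5%. With left-out libraries the non-conditioned mean was 56.2 points and the difference 1.68. The difference was also positive with tiles chosen by all 7 libraries (1.09), with medians (0.38), with limits of 70% and 5% (0.016) and without conditioned library 3 (0.51). Leaving out single libraries gave differences from -1.39 to 0.51 points, non-conditioned means from 58.7 to 59.8, conditioned means from 57.8 to 59.7, and 189 to 207 tiles.

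In the limma fits, 1 pair passed with an offset of 0.01 and 1 with the grid shifted by 250 bp; neither was a border. Whichever single library was left out, 0 pairs passed (374 to 486 unadjusted), and 0 to 1 tiles passed: 1 without non-conditioned library 1 and 1 without library 2, neither a methylated border tile. The unadjusted count of tiles was 1129, and 683 to 2399 when single libraries were left out: 683 without conditioned library 4 and 2399 without conditioned library 1-2. With a replicate block over numbers 3 and 4, 0 pairs and 0 tiles passed, with 513 pairs and 1891 tiles unadjusted. The same 4 libraries without the block, a fit added after the data had been seen, gave 2230 tiles. The cause of these shifts was not tested. The remaining alternatives gave no call. Depth limits every value, since percentages from few reads take few levels.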
